A study of Homo sapiens with 16 samples.

Results

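The loss of LEO1 was examined in quiescent human fibroblasts by comparing the H3K9me2 ChIP libraries of ΔLEO1 and wild-type cells kept in 0.1% serum. These are 4 of the 16 libraries of the series, replicates A and B of each genotype, chosen by their labels. BJ-5ta is an established fibroblast line immortalised with telomerase (hTERT), and every library of the series came from it. The ΔLEO1 cells are 1 clone, made by directing CRISPR/Cas9 to exons 1 and 2 of LEO1, so that effects of the clone and of the lost gene cannot be told apart. Both genotypes were grown in RPMI medium with 0.1% fetal bovine serum for 10 days before chromatin was prepared, and the same 2 genotypes in 10% serum, together with input DNA of every condition, served as the background. The labels name the antibody only as H3, whereas the series design and the methods give H3K9me2.

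LEO1 is a subunit of the PAF1 complex, which travels with RNA polymerase II and is needed for several histone modifications of transcribed chromatin. H3K9me2, dimethylation of lysine 9 of histone H3, is laid down largely by the EHMT1 and EHMT2 methyltransferases and covers broad domains of silent genes. It is typically low at the starts of active genes and high over gene-poor, late-replicating chromatin at the nuclear periphery. Some repeats, among them endogenous retroviruses and satellites, are silenced mainly through the related trimethyl mark, and zinc finger genes encode many of the repressors that find such repeats.

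Reads were counted over 237274 distinct windows of 2000 bp centred on annotated transcription start sites (TSS windows) and over 16092 peak regions, 10384 of them annotated to a repeat. In 0.1% serum the ChIP libraries held 3266083 and 2195076 reads over distinct TSS windows in ΔLEO1 replicates A and B, and 2922936 and 2373598 in wild type. Levels are given as CPM, read counts scaled to library depth with TMM factors, or as the share of normalised reads that a class took up. The share can move even when the total amount of the mark does not, and these tables hold no fly spike-in rows, so every rise or fall stated here is relative to the middle of all windows or regions. The reads over peak regions came to 0.103 and 0.0991 of those over TSS windows in ΔLEO1, and to 0.125 and 0.123 in wild type, so the choice of library size matters for direction. With the totals of the peak table as library sizes the median TSS window moved by 0.27 on the log2 scale, and with the totals of the TSS table the median peak region fell by 0.28. The library of ΔLEO1 in 10% serum, replicate A, held 50 reads over distinct windows and was left out, which left 7 ChIP libraries in the fit and 1 for that condition. The labels do not say whether replicates were separate cultures, so the p-values measure only the spread between these libraries. At the window of LEO1 with the highest level, the targeted gene gave 4.81 and 6.74 CPM in ΔLEO1 and 6.20 and 3.36 CPM in wild type, which does not check the genotype because the ends of the edited stretch are not known here.

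Few single TSS windows passed the test. With TMM scaling falls outnumbered rises, an order that turned with the totals of the peak table. Of 140885 windows tested, 436 were lower in ΔLEO1 (0.309%) and 127 were higher (0.0901%), by edgeR's quasi-likelihood test at an adjusted p under 0.05. Overlapping windows were merged, which left 261 lower and 100 higher loci. The lower and higher windows differed in their level elsewhere. Wild-type libraries in 10% serum, which do not enter the contrast, gave a median of 11.3 CPM at the lower windows, 3.32 CPM at the higher windows and 5.72 CPM at all windows tested. These levels partly restate the selection, since those libraries share the wild-type genotype, and a window low in wild type could pass the read filter through ΔLEO1. Among windows named for a gene with a RefSeq start, 144 of 215 lower windows (67.0%) held such a start of that gene, against 22 of 95 higher windows (23.2%) and 52.4% of all windows tested. The higher windows were therefore mostly annotated transcript starts away from the RefSeq start. The usable ΔLEO1 library of 10% serum differed from wild type in the same direction at 402 of 436 lower and 95 of 127 higher windows, against 79889 of all 140885 windows tested.

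The number of TSS windows called was sensitive to the libraries and to the test. DESeq2 called 0 windows on the same 7 libraries, with 1761 at an unadjusted p under 0.05 against 15307 by edgeR, and the edgeR fit with the near-empty library included also called 0, with 5786 at an unadjusted p under 0.05. Leaving out 1 of the 4 libraries left between 44 windows (without ΔLEO1 replicate A) and 149 (without ΔLEO1 replicate B). When the difference in input was subtracted in 1 fit, 24 windows were called, of which 22 were among those 563. With the totals of the peak table as library sizes 2191 windows were called, and rises outnumbered falls.

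The promoters of 4 genes at these loci are printed, from RefSeq on GRCh38.p14, to show how their CpG content varied. Each runs from 250 bases before to 50 bases after the gene start, 5′ to 3′, with each CpG dinucleotide in capitals. The first 3 lie in windows that fell and SGCD in a window that rose.
GPR139 (chr16:20073841-20074140, minus strand): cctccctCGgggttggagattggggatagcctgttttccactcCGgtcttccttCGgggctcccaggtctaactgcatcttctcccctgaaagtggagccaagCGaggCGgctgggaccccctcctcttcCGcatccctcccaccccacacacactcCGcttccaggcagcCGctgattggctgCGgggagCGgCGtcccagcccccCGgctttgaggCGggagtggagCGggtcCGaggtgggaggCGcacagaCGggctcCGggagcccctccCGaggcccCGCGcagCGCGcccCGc
EPHA5-AS1 (chr4:65669711-65670010, plus strand): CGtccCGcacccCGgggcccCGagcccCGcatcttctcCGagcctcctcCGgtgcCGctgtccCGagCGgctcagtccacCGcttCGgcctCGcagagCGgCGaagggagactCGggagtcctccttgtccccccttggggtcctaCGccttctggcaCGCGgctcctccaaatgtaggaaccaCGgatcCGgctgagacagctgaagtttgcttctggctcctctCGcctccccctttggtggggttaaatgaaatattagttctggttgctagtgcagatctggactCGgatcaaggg
GPR142 (chr17:74367256-74367555, plus strand): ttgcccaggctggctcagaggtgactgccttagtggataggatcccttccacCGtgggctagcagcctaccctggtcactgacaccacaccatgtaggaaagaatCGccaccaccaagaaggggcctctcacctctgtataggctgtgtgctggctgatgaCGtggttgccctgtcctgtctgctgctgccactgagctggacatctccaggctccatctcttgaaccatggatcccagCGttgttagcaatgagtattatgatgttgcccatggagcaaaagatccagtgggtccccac
SGCD (chr5:156326914-156327213, plus strand): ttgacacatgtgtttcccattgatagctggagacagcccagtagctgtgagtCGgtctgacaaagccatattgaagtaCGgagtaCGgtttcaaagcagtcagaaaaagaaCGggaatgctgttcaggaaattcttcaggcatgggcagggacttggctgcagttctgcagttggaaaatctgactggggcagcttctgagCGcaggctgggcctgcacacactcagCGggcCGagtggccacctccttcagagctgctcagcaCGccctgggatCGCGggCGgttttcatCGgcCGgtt
The printed stretches hold 24 CpG in GPR139, 23 in EPHA5-AS1, 4 in GPR142 and 13 in SGCD. The median was 14 over the 10262 RefSeq promoters in tested windows, 16 over the 42 in lower windows and 15 over the 5 in higher windows. Over all 18176 promoters matched to a window, tested or not, it was 21.

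The deepest loss was at GPR139, which encodes an orphan receptor of the brain. Its window at chr16:20072767-20074767 held 9 and 1 reads in ΔLEO1 replicates A and B and 34 and 33 reads in wild type. Both ΔLEO1 libraries, at 2.71 and 0.450 CPM, lay below the wild-type libraries at 11.7 and 13.9 CPM, as the rule for naming required. The log2 fold change was -2.37 ± 0.34 (SE), adjusted p = 6.90e-07 (edgeR). This call held without each of the 4 libraries in turn, and with input subtracted it stood at an adjusted p of 0.0622 (edgeR).

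Several falls lay close together on chromosome 17. KIF19 encodes a kinesin of cilia, BTBD17 a secreted BTB-domain protein and GPR142 a receptor for aromatic amino acids, and their windows start at 74347590, 74360868 and 74366506. KIF19 gave 4.51 and 3.6 CPM in ΔLEO1 and 15.5 and 14.3 CPM in wild type. BTBD17 gave 2.71 and 3.15 CPM against 12.7 and 10.5 CPM, and GPR142 gave 2.41 and 1.35 CPM against 10.7 and 9.66 CPM. The groups did not overlap at any of the 3, as the rule for naming required. The log2 fold changes were -1.67 ± 0.29, -1.76 ± 0.32 and -1.98 ± 0.35 (SE), with adjusted p of 2.25e-04, 7.86e-04 and 5.50e-04 (edgeR). In 10% serum the single ΔLEO1 library held 15, 3 and 3 reads, whereas the wild-type libraries held between 33 and 42.

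GRIK3, a kainate-type glutamate receptor subunit, had 2 separate windows among the named falls, at chr1:36858136-36860136 and chr1:36852687-36854687. The first gave 4.21 and 2.25 CPM in ΔLEO1 and 13.4 and 11.8 CPM in wild type, and the second gave 2.71 and 2.25 CPM against 8.95 and 12.6 CPM. At the start shared by EPHA5, an ephrin receptor of axon guidance, and its antisense transcript EPHA5-AS1, 8 overlapping windows fell, and without stated strand counting the pair cannot be told apart. The EPHA5-AS1 window gave 2.11 and 3.6 CPM in ΔLEO1 and 11.7 and 10.9 CPM in wild type, a log2 fold change of -1.79 ± 0.33 (SE; adjusted p = 7.86e-04, edgeR). Its own input differed by 0.03, although the 10 Mb bin around it, on chromosome 4, had an input difference of -0.40. A further fall lay at ENSG00000284650 on chromosome 1, a transcript with no symbol, at 3.61 and 2.7 CPM against 14.8 and 14.7 CPM.

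The remaining named falls were LINC02223, TRAV4, CYB5R2 and RPL23AP49. LINC02223, a noncoding RNA, lies on chromosome 5 in a segment whose input was also lower, and its own input differed by -0.61 on the log2 scale. CYB5R2, a cytochrome b5 reductase, gave 1.20 and 1.80 CPM in ΔLEO1 and 5.85 and 11.3 CPM in wild type. RPL23AP49, a ribosomal protein pseudogene next to the DUX4-like copy DUX4L26, was by far the deepest of the named windows, with 352 and 249 reads in ΔLEO1 and 409 and 361 in wild type. Its fall was small, -0.42 ± 0.08 (SE; adjusted p = 8.01e-04, edgeR), and since near-identical copies of this sequence exist its reads may be shared. Of the 12 named falls, 6 kept their calls without ΔLEO1 replicate A, namely those at GPR139, ENSG00000284650, KIF19, GPR142, LINC02223 and the first GRIK3 window.

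The 12 named rises started from low levels in wild type, where the rule for naming set no minimum of reads. FADS1, the delta-5 desaturase of fatty acid synthesis, was the highest of them, with 15.3 and 15.3 CPM in ΔLEO1 and 6.54 and 2.94 CPM in wild type (log2 fold change 1.5 ± 0.28, SE; adjusted p = 7.86e-04, edgeR). SFPQ, a splicing factor, gave 9.03 and 9.89 CPM against 2.07 and 2.10 CPM over a locus of 4 windows. BECN1, a regulator of autophagy, gave 9.33 and 9.89 CPM against 2.41 and 2.10 CPM over a locus of 6 windows. At all 3 loci both ΔLEO1 libraries lay above both wild-type libraries, as the rule for naming required.

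Of the other rises, KAT8, the acetyltransferase of lysine 16 of histone H4, gave 11.1 and 8.99 CPM in ΔLEO1 and 2.75 and 2.10 CPM in wild type. MMP14, a membrane-bound collagenase of fibroblasts, gave 8.73 and 7.19 CPM against 1.38 and 2.10 CPM. UQCRC2, a core subunit of respiratory complex III, held 25 and 10 reads in ΔLEO1 and 2 reads in each wild-type library, at least 5.24-fold higher against a floor of 3 reads per library. Without ΔLEO1 replicate A the calls of all but ACAP1, a regulator of membrane traffic, were lost among these 12, and ACAP1 stood at an adjusted p of 0.028 (edgeR) without that library and lost its call without any one of the others. The others were TNFAIP1, TPRN, SGCD, ARPC4-TTLL3 and AP2M1, with log2 fold changes between 1.72 and 2.05. SGCD, a sarcoglycan of the muscle membrane complex, had an input difference of -0.68. In the plot of the named windows the losses start from about 9 to 16 CPM in wild type, apart from CYB5R2 and RPL23AP49, and the gains from under 7 CPM. This contrast partly restates the selection, since the rule asked for at least 10 reads in each library of the higher group only.

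**Figure D1:**
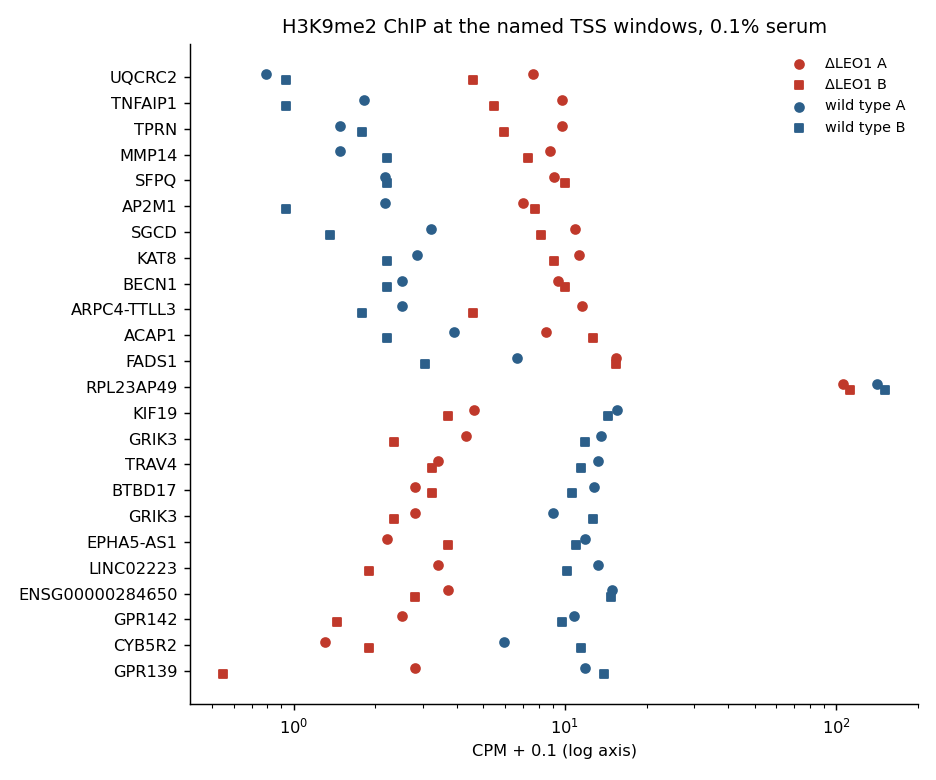
ChIP level of each of the 24 named TSS windows (rows) in the 4 libraries, as CPM plus 0.1 on a log axis. Red marks ΔLEO1, blue wild type, circles replicate A and squares replicate B; the groups separate in every row, which the rule for naming required, and RPL23AP49 is the only window over 100 CPM.

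Chromosomes differed in the share of reads they took up. Relative to the middle of all windows, 4 of 25 chromosomes fell and 1 rose (20% called in all). Chromosome 4 took up 3.78% and 3.97% of reads in ΔLEO1 and 4.62% and 4.59% in wild type, a log2 difference of -0.25 ± 0.02 (SE; adjusted p = 1.85e-04, edgeR). Chromosome 19, the most gene-dense, took up 4.86% and 4.74% against 5.40% and 5.22% (-0.15 ± 0.02, adjusted p = 0.0052, edgeR). Chromosomes 13 and 21 fell by 0.09 each on the log2 scale (adjusted p = 0.0111 for both, edgeR), and chromosome 14 rose by 0.06 (adjusted p = 0.0241, edgeR). In all 5 the genotypes did not overlap. The same held for many chromosomes not called, such as 20, 9 and 16 below wild type and 1, 11 and 22 above. Chromosomes Y, 22 and M, which were the other chromosomes among the 3 lowest and 3 highest, stood at -0.12, 0.05 and 0.03 and were not called.

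Input differed among these chromosomes. The input share of chromosome 4 was lower in ΔLEO1 by as much as the ChIP, with a log2 difference of -0.29, and that of chromosome 13 was lower by the same amount as its ChIP, -0.09 against -0.09. The input of chromosomes 19 and 21 differed by 0.03 and -0.01. With input subtracted in 1 fit, 0 of 25 chromosomes were called by edgeR (4 at an unadjusted p under 0.05), and chromosomes 4 and 13 stood at 0.05 and 0.005. Without ΔLEO1 replicate A the calls of chromosomes 13, 14, 19 and 21 were lost, each at an adjusted p of 0.085 (edgeR), and with the totals of the peak table as library sizes all 4 falls turned to rises of between 0.08 and 0.23. Chromosomes 14 and 19 also lost their calls without ΔLEO1 replicate B (both adjusted p = 0.054, edgeR), chromosome 21 without either wild-type library, and chromosome 14 without wild-type replicate B.

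**Figure D2:**
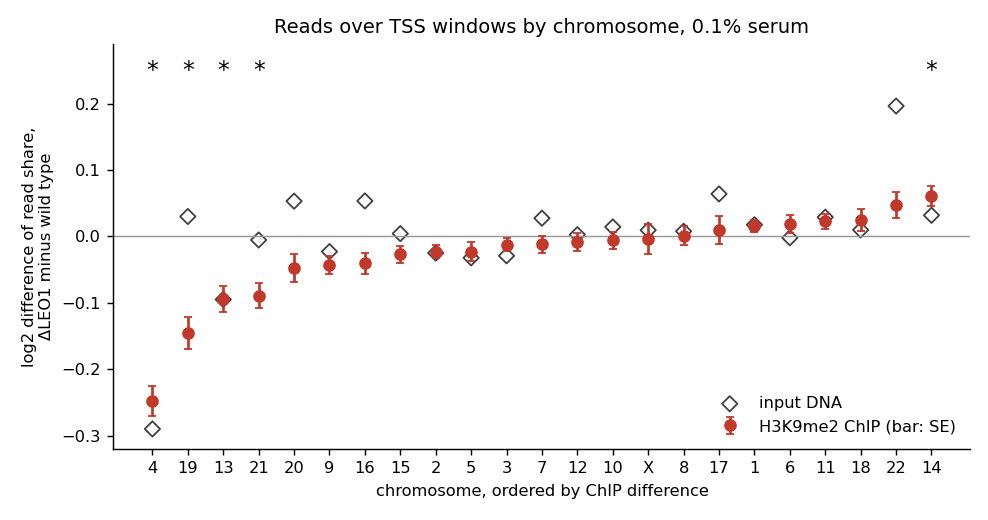
Log2 difference between ΔLEO1 and wild type in the share of reads over TSS windows for each autosome and chromosome X, with TMM scaling. Red points are H3K9me2 ChIP with SE, open diamonds input DNA (means of 2 libraries per genotype), and asterisks the chromosomes called by edgeR; on chromosomes 4 and 13 the diamond lies at or beyond the red point, and on 19 and 21 near 0, and the falls of the called chromosomes turn to rises with the totals of the peak table.

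Within chromosomes the differences were uneven. Of 310 bins of 10 Mb, 53 fell and 12 rose (21% called in all). The largest run covered chromosome 4 from 80 to 190 Mb, 11 neighbouring bins with a mean log2 difference of -0.41 in ChIP and -0.48 in input. The first 30 Mb of chromosome 5 had means of -0.34 in ChIP and -0.28 in input, and chromosome 3 from 40 to 70 Mb had -0.19 and -0.14. The bin with the deepest fall, chromosome 4 from 170 to 180 Mb, took up 0.137% and 0.126% of reads in ΔLEO1 and 0.186% and 0.194% in wild type (-0.52 ± 0.05, SE; adjusted p = 2.04e-11, edgeR), with an input difference of -0.55. In 19 of the 53 lower bins the input was below -0.1. With input subtracted in 1 fit, 5 bins were called, all lower, and this bin stood at 0.03.

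Other bins fell without a fall in input. The end of chromosome 12, beyond 130 Mb, took up 0.180% of reads in each ΔLEO1 library and 0.224% in each wild-type library (-0.31 ± 0.04, SE; adjusted p = 8.77e-08, edgeR), with an input difference of 0.06. The end of chromosome 21, beyond 40 Mb, fell by 0.26 with an input difference of 0.01, and chromosome 19 beyond 50 Mb fell by 0.25 with an input difference of -0.02. The calls on chromosomes 12 and 21 held with input subtracted (adjusted p = 0.0078 and 0.025, edgeR) and without each of the 4 libraries. Rises were smaller, with the 3 highest at 0.14 on chromosome 6 from 50 to 60 Mb, 0.13 on chromosome 14 from 80 to 90 Mb and 0.13 on chromosome 12 from 40 to 50 Mb. Each of these 3 lost its call without at least 1 of the 4 libraries.

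The level also differed with distance from the chromosome end. Over windows less than 2 Mb from the first or last window of a chromosome, the mean level was 3.06 and 2.95 CPM in ΔLEO1 and 3.34 and 3.20 CPM in wild type, a log2 difference of -0.12. It was -0.12 from 2 to 5 Mb, -0.06 from 5 to 10 Mb and -0.01 beyond 20 Mb. Input went the other way near the ends, with 0.08 in the first 2 Mb. The libraries did not overlap in the 4 strata under 20 Mb.

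Windows with a high wild-type level in 10% serum were lower in ΔLEO1, and windows with a low one were higher. They were ordered into 10 strata of like size by that level, which took no part in the contrast. Those libraries share the wild-type genotype, so the order partly restates the ranking. In the highest stratum, 21751 windows averaged 9.38 and 9.42 CPM in ΔLEO1 and 10.7 and 10.6 CPM in wild type of 0.1% serum, a log2 difference of -0.18. In the second lowest stratum the values were 1.31 and 1.26 CPM against 1.17 and 1.19 CPM, a difference of 0.13. The lowest 7 strata were higher in both ΔLEO1 libraries and the highest 2 lower in both. Input followed the same order over a smaller range, from 0.07 in the lowest stratum to -0.06 in the highest, and its part was not tested. The ΔLEO1 ChIP libraries also held fewer reads over peak regions relative to TSS windows, a mean of 0.101 against 0.124 in wild type. The part of this in the order was not tested. Peak regions, ordered into 5 strata in the same way, ran from 0.09 in the lowest to -0.02 in the highest.

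CpG content of the promoter gave another order. Promoters of 18176 genes were split into 5 strata by their number of CpG. In the stratum with the fewest, the level was 6.19 and 6.30 CPM in ΔLEO1 and 6.23 and 6.25 CPM in wild type, which overlapped. In the stratum with the most, from 34 to 69 CpG, it was 2.33 and 2.29 CPM against 2.62 and 2.51 CPM, a log2 difference of -0.15. The fall was -0.08, -0.14 and -0.15 in the strata between, without overlap. Input differed the other way, by 0.10 in the stratum with the most CpG. Promoters of that stratum had a low level in wild type and yet fell, so the order by level did not hold for every set.

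**Figure D3:**
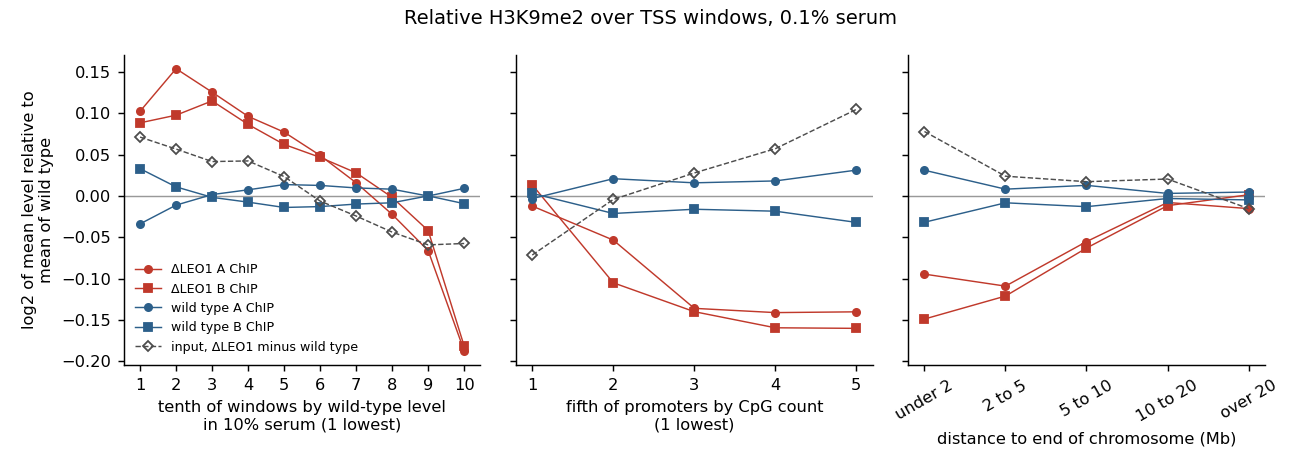
Mean ChIP level of each library over strata of TSS windows, as log2 of its ratio to the mean of the wild-type libraries (TMM scaling). Left, 10 strata by wild-type level in 10% serum, middle, 5 strata of promoters by CpG count, and right, distance to the chromosome end. Red is ΔLEO1, blue wild type, and the dashed line is the input difference between genotypes; the red lines fall from about 0.1 to -0.18 on the left while the input line falls from 0.07 to -0.06, and in the other panels red and input diverge.

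Gene classes were compared by their summed reads. Of 14 classes, 8 fell and 0 rose (57.1% called), relative to a middle set mostly by protein-coding genes, which hold 153472 of the 237274 windows and stood at 0.003. Zinc finger genes fell furthest, from 1.85% and 1.84% of reads in wild type to 1.66% and 1.68% in ΔLEO1. The log2 difference was -0.15 ± 0.01 (SE; adjusted p = 0.0023, edgeR), with an input difference of 0.01, and this was the one class called with input subtracted (-0.15, adjusted p = 0.0126, edgeR). Segments of immunoglobulin and T cell receptor genes fell by 0.14 and other lncRNA genes by 0.09. MicroRNA genes fell by 0.08 and LINC RNA genes by 0.07, the latter with an input difference of -0.08. Pseudogenes fell by 0.06, antisense and divergent RNA by 0.05 and unnamed transcripts by 0.04. Olfactory receptors, at 0.341% and 0.352% against 0.367% and 0.365%, did not pass the test (-0.08 ± 0.04, SE; adjusted p = 0.199, edgeR). Small nucleolar RNA genes and other small RNA genes were the highest, beside the 37 mitochondrial windows, and neither passed the test.

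The 8 falls were called again without chromosomes 3, 4 and 5, which held long segments of lower input, a setting chosen after seeing the data. Without ΔLEO1 replicate A, the calls of the segments, antisense RNA and unnamed transcripts were lost (each adjusted p = 0.076, edgeR). MicroRNA genes were lost without wild-type replicate A (adjusted p = 0.057, edgeR). With the totals of the peak table as library sizes, 12 classes rose and 0 fell, zinc finger genes by 0.18.

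**Figure D4:**
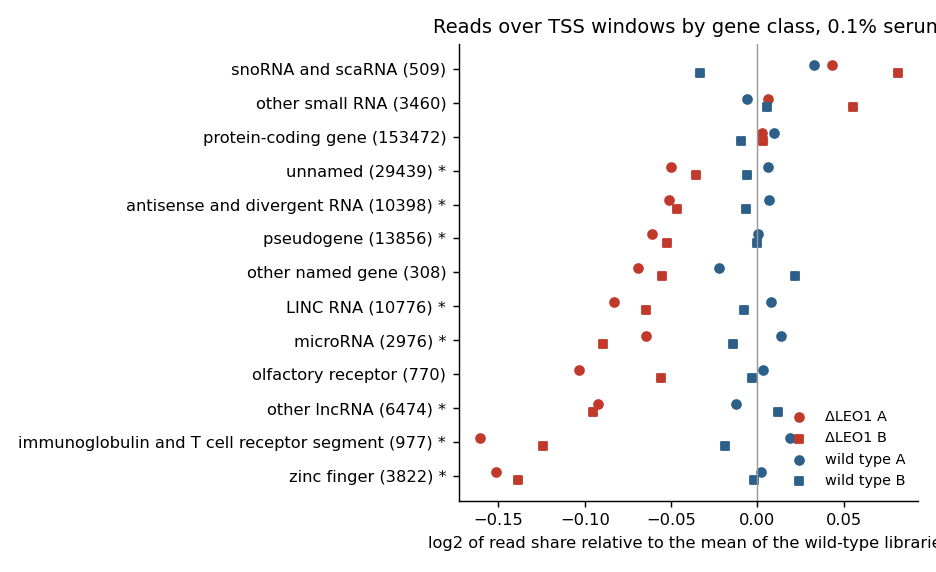
Share of reads over TSS windows of 13 gene classes in each library, as log2 of its ratio to the mean of the wild-type libraries (TMM scaling). Numbers in brackets are windows, red marks ΔLEO1, blue wild type, and asterisks the classes called by edgeR; the red points of zinc finger genes and of receptor segments lie furthest below 0, a direction that turns with the totals of the peak table.

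Zinc finger genes encode DNA-binding proteins, many with a KRAB domain that recruits silencing complexes to repeats, and many lie in clusters on chromosome 19. There, 277 such genes averaged 5.18 and 5.17 CPM per window in ΔLEO1 and 5.98 and 5.94 CPM in wild type, a log2 difference of -0.20 with an input difference of -0.002. Of the 260 tested, each at its highest window, 196 lay below 0, with a median of -0.24, against a median of -0.01 over all windows. These medians are not of like windows, since windows with a high wild-type level ran lower in general, at -0.18 in the highest of 10 strata. At its highest window, 1 of these 260 genes was called lower. Of their 1343 windows tested, 12 were called lower and 0 higher, against 0.309% and 0.0901% of all windows, and overlapping windows share reads. Other named genes of chromosome 19 had a median of -0.13 and zinc finger genes of other chromosomes one of -0.08. By megabase, the lowest values on chromosome 19 were not at these clusters. Between 29 and 30 Mb, a stretch with 72 windows and 0 of zinc finger genes, the difference was -0.52 with an input difference of 0.05. Between 27 and 28 Mb it was -0.61 with an input difference of -0.69. From 39 to 43 Mb it lay between -0.02 and 0.06, and between 24 and 25 Mb ChIP and input were both higher, by 0.35 and 0.46.

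Among the receptor segments, the T cell receptor alpha variable genes stood apart, which was noticed after their values were seen. T cell receptor segments are silent outside T cells. The 54 TRAV windows, from 21620838 to 22321188 on chromosome 14, averaged 5.29 and 5.20 CPM in ΔLEO1 and 8.84 and 9.17 CPM in wild type. Their summed reads differed by -0.78 on the log2 scale, with an input difference of -0.02 and a difference of -0.74 in the usable ΔLEO1 library of 10% serum. Of 52 windows tested 47 were below 0 and 12 were called lower, against 0.309% of all windows. Named by the rule, TRAV4 gave 3.31 and 3.15 CPM in ΔLEO1 and 13.1 and 11.3 CPM in wild type (-1.69 ± 0.31, SE; adjusted p = 7.86e-04, edgeR). The groups did not overlap, as the rule for naming required, although chromosome 14 as a whole rose. Immunoglobulin kappa variable genes on chromosome 2 differed by -0.48 with an input difference of -0.12, and heavy and lambda variable genes by -0.27 and -0.11, with 7 and 31 windows tested. T cell receptor beta variable genes on chromosome 7 went the other way, at 0.20 with an input difference of -0.03. Their 59 windows averaged 0.423 and 0.442 CPM in ΔLEO1 and 0.373 and 0.377 CPM in wild type, and 1 held enough reads to be tested.

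MicroRNA genes held a second such cluster, also noticed after its values were seen. The cluster at 53665679 to 53763344 of chromosome 19 is known for its expression in placenta. Its 45 windows averaged 6.61 and 7.13 CPM in ΔLEO1 and 9.44 and 8.96 CPM in wild type, a log2 difference of -0.42 with an input difference of 0.001, and 40 of 45 lay below 0. Their median was -0.36, against -0.01 over all windows, and neighbouring windows of 1 cluster are not independent. Called lower were 2 of the 45, those of MIR515-2 and MIR520B, against 0.309% of all windows tested. The former held 9 and 7 reads in ΔLEO1 and 34 and 19 in wild type, and the latter 14 and 11 against 34 and 28. Their mature sequences from RefSeq (GRCh38.p14) are shown to identify these 2 members, with the seed, bases 2 to 8, in capitals.
hsa-miR-515-3p (chr19:53685059-53685080, plus strand): gAGUGCCUucuuuuggagcguu
hsa-miR-520b-3p (chr19:53701267-53701287, plus strand): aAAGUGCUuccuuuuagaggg
The 2 seeds differ, and the counts describe chromatin at the gene starts, not the RNA.

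Other gene families were then described. Each gene was represented by its window with the highest level, and the values are medians of log2 fold changes, described without a test. Ephrin receptors, which guide axons and vessels, had a median of -0.33, with 9 of 11 tested genes below 0 and 1 called lower. Clustered protocadherins, adhesion molecules of neurons, had -0.23 with 42 of 56 genes below 0, FOX genes -0.22, HOX genes -0.20, SOX genes -0.18 and cadherins -0.17. All lay below the median of all windows, but windows with a high wild-type level ran lower in general, at -0.18 in the highest of 10 strata. Summed over all their windows, these families stood at -0.26, -0.05, -0.15, -0.01 and -0.14 in the same order, and FOX genes overlapped between genotypes. Glutamate receptors and cytochrome P450 genes both had -0.12. PAX, solute carrier, GPR and ribosomal protein genes had medians between -0.04 and 0. Defensins, peptides of innate immunity, lay above 0 at 0.10, and their summed reads overlapped between genotypes.

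Calls in these families were read against 0.309% of all windows called lower and 0.0901% called higher. At the highest window, 3 of 63 GPR genes were called lower (GPR139, GPR142 and GPR148). So were 1 of 11 ephrin receptors, 1 of 14 SOX genes, 1 of 70 keratin-associated proteins and 1 of 340 olfactory receptors. The count for olfactory receptors is near the share over all windows. Over all their windows tested, 5 of 141 windows of GPR genes and 5 of 63 of ephrin receptors were called lower, the latter being overlapping windows of EPHA5. The MMP and ADAMTS proteases had 1 window called higher (MMP14) and 3 called lower, all of ADAMTS18, among 113, and their summed difference was -0.14. Solute carriers had 3 windows called higher and 2 called lower, both of SLC19A1, among 1833. Called higher were 1 of 55 ribosomal protein genes (RPL35A) and 1 of 38 sodium and calcium channel genes. Positive summed differences without overlap were found for the PAF1 complex genes at 0.29, fibroblast genes at 0.19, H3K9 demethylases at 0.09, semaphorins at 0.08, collagens at 0.04 and solute carriers at 0.02. Most of the families and lists described had both ΔLEO1 libraries below wild type instead. Of single peak regions, 18.1% had both above wild type, but single regions are not a like measure to sums over many windows. The summed input of the PAF1 complex genes was itself higher by 0.07, and these sums were not tested.

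The genes that write, erase and read the mark were examined as lists. None of the 7 tested H3K9 methyltransferase genes was called at its highest window, and 5 lay below 0, with a median of -0.23 and a summed input difference of -0.16. EHMT1, which writes H3K9me2, had 2 other, overlapping windows that fell, of which the first starts at 137816934 of chromosome 9. It held 16 and 11 reads in ΔLEO1 and 37 and 31 in wild type (-1.27 ± 0.29, SE; adjusted p = 0.011, edgeR). SETDB2, a related methyltransferase, held 26 and 14 reads against 8 and 8 (1.07 ± 0.35, SE; adjusted p = 0.155, edgeR). Of 10 tested demethylase genes 7 lay above 0 and none was called, with KDM4A the highest at 0.97 ± 0.36 (SE; adjusted p = 0.226, edgeR). The 3 HP1 genes, readers of H3K9 methylation, were not called.

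The subunit genes of the PAF1 complex were not called either, and 5 of the 6 tested lay above 0, with a median of 0.17. Of 18 fibroblast genes, such as collagens, fibronectin and THY1, 11 held enough reads to be tested, 7 lay above 0 and none was called. Their summed level was 2.66 and 2.66 CPM in ΔLEO1 and 2.42 and 2.25 CPM in wild type. FN1 was the highest at 0.90 ± 0.38 and COL6A1 the lowest at -0.59 ± 0.24 (SE; adjusted p = 0.317 and 0.299, edgeR). Of 21 quiescence genes taken from the text of the study, 19 were tested, 12 lay below 0 and none was called.

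Peak regions were then compared by annotation. Single regions gave 8 falls (0.0497%) and 2 rises (0.0124%) among 16092. The most deeply covered was a region of telomere-like (AGGGTT)n repeat on chromosome 4, at 190122364 to 190123344, whose nearest gene is DUX4, an early embryonic transcription factor. It held 130 and 78 reads in ΔLEO1 and 239 and 203 in wild type, or 384 and 362 CPM against 641 and 689 CPM. The log2 fold change was -0.82 ± 0.17 (SE; adjusted p = 0.0120, edgeR), with an input difference of 0.22. The region is present in many similar copies, so that its reads may be shared.

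The other falls were at regions with and without a repeat annotation. An intron nearest ADARB2-AS1, the antisense partner of the RNA-editing paralogue ADARB2, fell from 153 and 115 CPM to 35.5 and 55.8 CPM, and a noncoding exon nearest LINC02433 from 185 and 122 CPM to 53.2 and 65.1 CPM. Others were an Alu element (AluSg) nearest PLAC4, a CpG island nearest LINC02510, an intergenic region nearest LINC02145 with an input difference of -1.05, an exon nearest FAM198B-AS1 and a THE1B-int element nearest MIR548F2. The regions nearest LINC02433, LINC02510 and FAM198B-AS1 lie between 80 and 190 Mb of chromosome 4, where input differed by -0.48 on average, and their own input differed by 0.16, 0.01 and -0.12. The region nearest LINC02145 lies in the first 30 Mb of chromosome 5, where input differed by -0.28. The rises were an Alu element (AluSp) nearest MIR3201, from 29.5 and 27.2 CPM to 121 and 97.6 CPM, and an intergenic region nearest CACNA1I, from 40.3 and 64.5 CPM to 145 and 121 CPM. In every one of the 10 the groups did not overlap. Over all regions, both ΔLEO1 libraries lay below wild type at 19.4% and above at 18.1%. The number of peak regions called depended on the libraries and the test. DESeq2 called 0 regions (292 at an unadjusted p under 0.05, against 1340 by edgeR), as did the edgeR fits with input subtracted (1144), with the near-empty library included (425) and without ΔLEO1 replicate A (1215). Without another library between 1 and 6 were called.

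Summed by annotation class, 3 of 21 rose and 2 fell (23.8% called). SINE regions rose from 6.88% and 7.13% of reads in wild type to 7.52% and 7.88% in ΔLEO1, a log2 difference of 0.13 ± 0.02 (SE; adjusted p = 1.13e-05, edgeR). DNA transposons rose by 0.13 and introns without a repeat by 0.06. CpG islands fell by 0.18 and retroposons by 0.21. LINE and LTR regions, which held over 50% of the reads together, stood at 0.01 each and were not called. Classes of at most 8 regions (RC, RNA and Low_complexity) were highest, between 0.17 and 0.60, without a call. The calls of DNA transposons and introns were lost without wild-type replicate A, without ΔLEO1 replicate B and without chromosomes 3, 4 and 5, and that of retroposons without ΔLEO1 replicate A (adjusted p = 0.0516, edgeR).

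Families split the classes. Of 27, 5 fell and 6 rose (40.7% called). Composite SVA retroposons, young mobile elements of hominids that carry GC-rich repeats, fell from 0.820% and 0.799% to 0.690% and 0.713% (-0.21 ± 0.04, SE; adjusted p = 0.0084, edgeR). Centromeric satellites fell from 0.389% and 0.376% to 0.324% and 0.335% (-0.22 ± 0.06, adjusted p = 0.0166, edgeR), and CpG islands from 2.04% and 1.96% to 1.78% and 1.75% (-0.18 ± 0.03, adjusted p = 0.0084, edgeR). Regions in 5' UTRs fell by 0.20 over 27 regions (adjusted p = 0.0236, edgeR). The same 27 regions were not called among the annotation classes (adjusted p = 0.121, edgeR), where the spread was estimated with other sums. The ERV1 retroviruses, with 2330 regions, fell by 0.06 ± 0.01 on the log2 scale (adjusted p = 0.0084, edgeR). The genotypes did not overlap in any of the 5, while the input of SVA, CpG and 5' UTR regions was higher in ΔLEO1 by 0.10, 0.08 and 0.13. Some families that were not called did not overlap either, such as exon and promoter-TSS regions below wild type and CR1 and Gypsy elements above.

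The rises were mainly in dispersed repeats. Alu elements, short repeats of primates found in gene-rich DNA, rose from 6.04% and 6.24% to 6.62% and 6.96% (0.14 ± 0.03, SE; adjusted p = 0.0084, edgeR). L2 elements, ancient and no longer mobile, rose from 1.99% and 2.02% to 2.16% and 2.18% (0.12 ± 0.03, adjusted p = 0.0097, edgeR). The hAT-Tip100 transposons rose by 0.19, ERVL retroviruses by 0.09 and their ERVL-MaLR relatives by 0.08. L1 elements, the most numerous family with 3120 regions, took up 20.6% in each of the 4 libraries after rounding. The Satellite/Satellite family was highest at 0.26 but its libraries overlapped and its input differed by 0.49, and Gypsy elements missed the threshold (0.17 ± 0.06, adjusted p = 0.0537, edgeR).

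**Figure D5:**
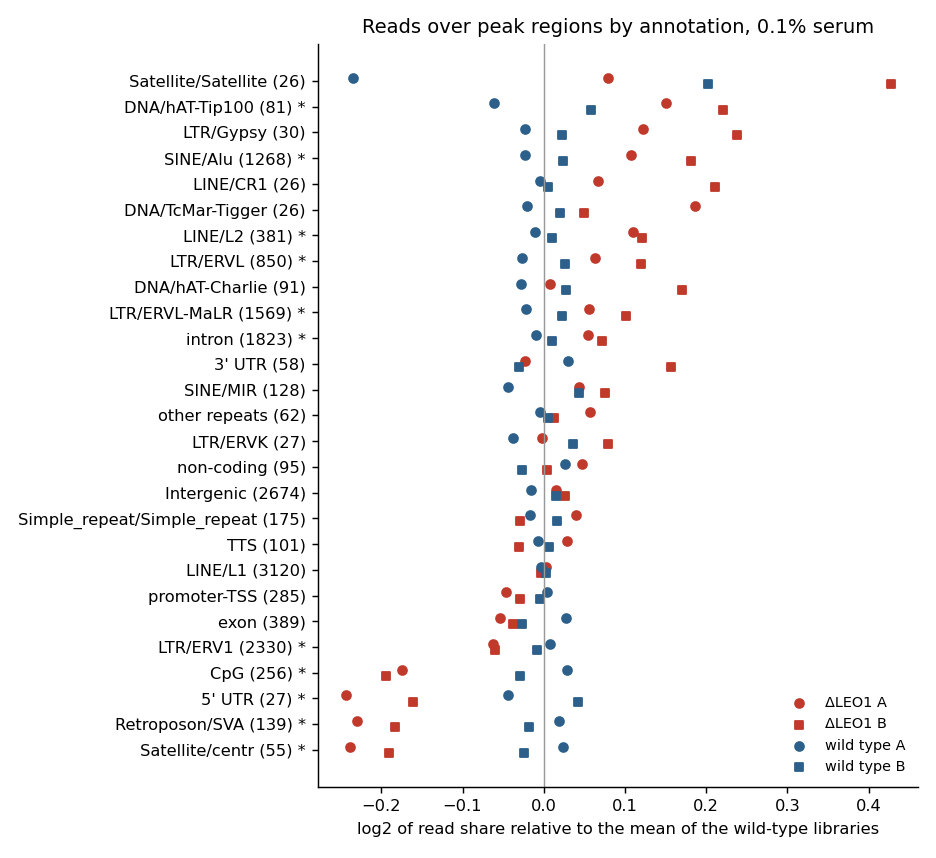
Share of reads over peak regions of 27 annotation families in each library, as log2 of its ratio to the mean of the wild-type libraries (TMM scaling). Numbers in brackets are regions, red marks ΔLEO1, blue wild type, and asterisks the families called by edgeR; SVA, CpG, 5' UTR and centromeric satellite lie near -0.2 in red, and Alu near 0.15, a rise that turns with the totals of the TSS table.

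Single regions were also ranked by library. Both ΔLEO1 values were under both wild-type values at 26.6% of the 139 SVA regions and 30.1% of the 256 CpG regions, against 19.4% of all regions, and above them at 6.47% and 7.03%, against 18.1%. At the 1268 Alu regions they lay above at 23.4% and below at 15.1%. These counts use the same contrast as the sums.

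Names within a family also differed. Of repeat names with at least 50 regions, LTR12C, a promoter-bearing ERV1 repeat with 1047 regions, was lowest, at 6.62% and 6.51% in ΔLEO1 and 7.23% and 7.05% in wild type, a log2 difference of -0.12. MER52A and MER52D of the same family stood at -0.10 and -0.07, and MER52C at 0.08. The highest 3 names were AluJo, AluSz and AluSx, at 0.27, 0.24 and 0.23, and AluY, the youngest Alu, stood at 0.03 with overlapping libraries. Among L1 names the range was from -0.11 for L1PA16 to 0.10 for L1PA12. These values were not tested.

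The family differences were set beside the level of the mark and the other serum condition. Across the 27 families the log2 difference had Pearson's r of -0.79 (Spearman's rho -0.85) with the enrichment of ChIP over input in wild type of 10% serum, and of 0.76 with the difference of the usable ΔLEO1 library in that serum. Input differences gave 0.03 (Spearman's rho -0.38). These are descriptions across families that share libraries and normalisation. The reads over peak regions relative to TSS windows were 0.101 in ΔLEO1 and 0.124 in wild type on average, and their part was not tested. SVA was the most enriched family, at 0.47 on the log2 scale relative to the middle of all regions, and Alu regions stood at -0.14. Across 307 bins of 10 Mb, r with the 10% serum difference was 0.73, and 0.64 without chromosomes 3, 4 and 5. The r with input was 0.65 over all bins and 0.19 without those chromosomes (Spearman's rho 0.24 and 0.12).

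The family calls had limits. With the totals of the TSS table as library sizes all 22 called families fell, Alu by 0.18 among them, so the rises are rises within the peak regions. With input subtracted only CpG regions remained called (-0.26, adjusted p = 0.036, edgeR). Without wild-type replicate A 4 families were called and without ΔLEO1 replicate B 6, the ERVL, ERVL-MaLR, L2, hAT-Tip100 and intron rises being lost each time, while SVA, CpG, ERV1 and Alu kept their calls without each library. The fall of 5' UTR regions was lost without either wild-type library or ΔLEO1 replicate A, and that of centromeric satellites without wild-type replicate A. Without chromosomes 3, 4 and 5 the 11 families kept their calls. The SVA family and the annotation class of retroposons are the same 139 regions, and as a class they lost their call without ΔLEO1 replicate A.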

How the data were processed

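ChIP and input libraries of BJ-5ta fibroblasts were labelled by genotype, serum, antibody and replicate. The authors deposited raw read counts per library in 2 tables, over TSS windows and over merged peak regions with their annotation. The submitters' processing notes name STAR 2.7.10a, bcl2fastq 2.20.0.422, HOMER, hg38 and dm6, and the methods describe csaw counting with fly spike-in scaling. The roles of the tools, the peak caller, strand and duplicate handling are not given in the sources used here, and 0 rows lie on fly contigs.

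Windows with identical chromosome, start and end were counted once (237274 of 272902 rows). In 2399 of them the rows differed, by at most 2 reads, and the first by symbol was kept. Overlapping windows share reads. Annotation classes and families come from the detailed annotation of each region, families with under 20 regions being pooled within other repeats. Gene classes were read from symbols and RefSeq gene types (98.1% of symbols matched). Each promoter was matched to a window of its gene centred within 100 bp.

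Counts were tested with edgeR 4.0.16 in R 4.3.3 (quasi-likelihood F-test, two-sided, filterByExpr with a minimum count of 10, TMM, prior count 2) in 1 fit of 7 ChIP libraries with 1 coefficient per group. Sums over chromosomes, bins of 10 Mb with at least 50 windows, gene classes, annotation classes and families were fitted likewise, with the library total times the TMM factor as library size. P-values were adjusted by Benjamini-Hochberg within each partition, and 0.05 was the threshold. SE came from the F statistic. DESeq2 1.42.0 and the other alternatives are given below. Loci were named where both libraries of a genotype lay on 1 side of both others with at least 10 reads in each library of the higher group. The 12 smallest p-values in each direction were named, and of the sums every call, up to 12, with the 3 highest and 3 lowest. The fits were tested on simulated data. The members and lists were chosen with earlier results of these data known. With 2 libraries against 2 no exact permutation test could pass the threshold, and none was used.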

Additional observations from a re-analysis of the deposited data

Results flagged for a closer look

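Only 1 usable ΔLEO1 library exists in 10% serum, so a test of whether the genotype difference changed with serum rests on it and assumes that it varies like the other groups. In 3 of 310 bins of 10 Mb the difference in 0.1% serum differed from that in 10% serum by edgeR's interaction term, and 30 bins had an unadjusted p under 0.05. On chromosome 15 from 30 to 40 Mb the genotype difference was 0.10 in 0.1% serum and -0.20 in 10% serum, an interaction of 0.29 ± 0.06 (SE; adjusted p = 0.0063, edgeR). The bin took up 0.309% and 0.295% of reads in ΔLEO1 and 0.279% and 0.287% in wild type of 0.1% serum. On chromosome 3 the difference was larger in 10% serum: from 40 to 50 Mb it was -0.21 in 0.1% and -0.42 in 10% serum (interaction 0.21 ± 0.05, adjusted p = 0.042, edgeR), and from 50 to 60 Mb -0.15 and -0.38 (0.23 ± 0.06, adjusted p = 0.032, edgeR). Input at these bins in 0.1% serum differed by 0.05, -0.20 and -0.15. No chromosome, gene class, annotation class or family passed this test by edgeR, with 2, 2, 1 and 2 of them at an unadjusted p under 0.05.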

How the results depend on the processing

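With 2 libraries per group the counts of calls moved with the processing, and the cause was not tested. Settings without chromosomes 3, 4 and 5 were chosen after seeing the data. For TSS windows called, 563 became 2191 with the totals of the peak table as library sizes (2054 higher and 137 lower), 338 over windows without overlap and 24 with input subtracted. DESeq2 and the fit of all 8 ChIP libraries called 0 TSS windows (1761 and 5786 at an unadjusted p under 0.05). For peak regions called, 10 became 94 with the totals of the TSS table (1 higher and 93 lower) and 0 with DESeq2, all 8 ChIP libraries and input subtracted. The 5 chromosomes called became 9 with library totals without TMM, 9 without overlap, 22 with the other totals and 0 with input subtracted. The 65 bins became 283 and 5 under these last 2 settings. The 8 gene classes became 12 and 1, the 5 annotation classes 16 and 1, and the 11 families 22 and 1. Without chromosomes 3, 4 and 5, 3 annotation classes were called.

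Leaving out 1 library gave 44 to 149 TSS windows, 0 to 6 peak regions, 1 to 4 chromosomes, 36 to 70 bins, 5 to 9 gene classes, 3 to 5 annotation classes and 4 to 14 families. Mitochondrial windows ranged from -0.35 to 0.55 as a chromosome and from -0.36 to 0.54 as a class, turning without wild-type replicate A. Low_complexity ranged from -0.056 to 0.39, turning without the same library. The log2 difference of annotation RNA (1 region) ranged from -0.46 to 1.13 and turned without wild-type replicate A (-0.12) and ΔLEO1 replicate B.

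With the totals of the other table, directions turned as follows. Chromosomes 13, 19, 21, 4 and Y stood at 0.23, 0.18, 0.23, 0.076 and 0.20. The first bin of chromosome 5 and the last bins of chromosomes 12 and 21 stood at 0.025, 0.0094 and 0.062. LINC, antisense, segment, microRNA, other lncRNA, pseudogene, unnamed and zinc finger classes stood at 0.25, 0.27, 0.18, 0.25, 0.23, 0.27, 0.28 and 0.18. DNA, Low_complexity, SINE and intron regions stood at -0.19, -0.14, -0.19 and -0.26. The families hAT-Tip100, L2, ERVL, ERVL-MaLR, Gypsy, Alu and Satellite/Satellite stood at -0.13, -0.20, -0.23, -0.24, -0.14, -0.18 and -0.059, and introns at -0.26.

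With input subtracted, chromosomes 13, 22, 4 and M turned to 0.0049, -0.15, 0.046 and -0.11. The bins of chromosome 4 starting at 120, 140, 150, 160, 170 and 180 Mb turned to 0.11, 0.036, 0.10, 0.043, 0.032 and 0.034. LINC RNA, mitochondrial and unnamed classes turned to 0.015, -0.11 and 0.0062, Low_complexity to -0.15 and Satellite/Satellite to -0.25.

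Deviations of like-lettered libraries at single windows and regions correlated between -0.002 and 0.018. Counting noise is large at such depth, so these values cannot decide whether replicate letters pair the samples. The replicate block gave 624 TSS windows, 10 peak regions, 9 chromosomes, 88 bins, 7 gene classes, 5 annotation classes and 11 families. Library totals without TMM, no filter on low counts, a mean of at least 20 counts and the 4 compared libraries alone left other counts within 1.5 times and turned no direction of a named value. Depth limits single windows, of which the named ones held as few as 1 read in a library, more than the class sums.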
